A study of Mus musculus with 36 samples.

Results

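The response of the MSR-dCas9-Control line to the first 3 h after doxycycline removal was measured by comparing its 3 libraries at 3 h post-induction with its 3 induced libraries, 6 of the 36 libraries of the series, over every gene row and every repeat family row of the count table. The cells are mouse embryonic fibroblasts (MEF), a culture of connective tissue cells, that carry a doxycycline-inducible dCas9 and a guide RNA against the major satellite repeats (MSR), the tandem repeats that form pericentric heterochromatin. dCas9 is a Cas9 protein that binds DNA without cutting it, and in this line it carries no effector domain. The transgene was integrated by PiggyBac transposition, and the line was kept as a mixed culture and not as 1 clone. Induced cells had received 10 ng/ml doxycycline for 24 h. Cells at 3 h post-induction had received the same and were then washed with PBS and given fresh medium without doxycycline. The later groups of the same line (6, 12 and 24 h) and its uninduced cells, 3 libraries each, are used below for the course of single genes. The MSR-dCas9-Activator line, whose dCas9 carries the VPR activation domain, was induced with 10 ng/ml doxycycline for 6 h. That line is used for 1 comparison, also with 3 libraries a group.

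The removal of doxycycline and the supply of fresh medium came in the same step, so their parts in any change described here cannot be told apart. No group received fresh medium with doxycycline kept in place. The study gives its replicates as independent experiments. In bulk RNA, fewer cells of a type and less RNA per cell cannot be told apart.

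Several regulatory systems of fibroblasts are known to act within the first hours after a change of medium. Growth factors bind receptor tyrosine kinases, and the MAP kinase pathway then induces immediate early genes, which encode transcription factors such as Fos and Egr1, followed by feedback inhibitors such as the Dusp phosphatases, the Sprouty proteins and Errfi1. NF-kappaB is a transcription factor that is held in the cytoplasm by inhibitors until a signal releases it, and it drives cytokines, chemokines and its own inhibitors. The integrated stress response acts through the translation factor eIF2 and the transcription factor Atf4, and its targets include amino acid transporters and the pseudokinase Trib3. Doxycycline itself is an antibiotic of the tetracycline class, which binds bacterial ribosomes and is known to hinder translation in mitochondria as well.

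The 6 libraries held between 27722389 and 53181798 counts on genes and between 35092024 and 65241083 on genes and repeats together, a range that did not separate the groups. The sums of marker lists given here are over the members tested in the 36-library fit. Of 16 fibroblast markers 15 were tested. They summed to between 1071945 and 1255861 normalised counts in the induced libraries and to between 1139343 and 1322574 at 3 h. Of the markers of other cell types, those of endothelium summed to 29.1 to 41.1, those of epithelium to 37.9 to 64.5, those of skeletal muscle to 49.1 to 64.5 and those of adipocytes to 10.4 to 23.0 over the 6 libraries. The neuron list summed to 952 to 1142 in induced cells and 877 to 1100 at 3 h, nearly all of it Tubb3 (a tubulin gene, mean 1040), and the erythroid list to 340 to 467 and 348 to 406, nearly all of it Alas2 (mean 387). The macrophage and leukocyte list summed to 487 to 588 in induced cells and 590 to 647 at 3 h, with the leukocyte antigen Ptprc at 0 in every induced library and at 0, 2.65 and 4.14 at 3 h. Of the 3 members of that list tested over the Control line, Csf1r was higher at 3 h (log2 0.35, adjusted p 0.0154). The part of these lists in the results below was not tested.

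All 9 genes called in this comparison were higher at 3 h. The 5 coding genes among them were Olr1, Tnfaip2, Errfi1, Ier3 and Sdc4, which encode a scavenger receptor, a cytokine-induced protein, an inhibitor of the EGF receptor, an immediate early protein and a cell surface proteoglycan, and the fold changes of the 9 lay between 2.09 and 3.95. A gene was called when edgeR's quasi-likelihood test gave a Benjamini-Hochberg adjusted p under 0.05 over the 28536 genes tested, the fold change was beyond 2 and the mean normalised count over the 6 libraries was above 100. These 9 are 0.0315% of the genes tested, and 0 genes were called lower (DESeq2 called 22 higher and 1 lower, and 2029 genes had an unadjusted edgeR p under 0.05). Without the limits on fold and mean, 43 genes passed the adjusted p with higher values at 3 h (0.151%) and 9 with lower values (0.0315%). That fit takes 1 estimate of spread from all 36 libraries. The biological coefficient of variation, the spread between replicates beyond counting error, was 0.149 over the 36 libraries and 0.0555 over the 18 libraries of the Control line. The same test over the 18 Control line libraries alone, which was added after the values were seen, passed 1493 genes with higher values (6.77% of 22061 tested) and 1098 with lower values (4.98%), and it called 29 higher (0.131%) and 2 lower (0.00907%). The 31 include all 9 of the first fit. Below, "rose" and "fell" refer to genes past the adjusted p, with the fit named as the 36-library or the 18-library fit. Over all genes tested the median log2 fold change was -0.009 in the 36-library fit and -0.002 in the 18-library fit.

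Errfi1, which encodes a feedback inhibitor of the EGF receptor, had 1099, 1007 and 1154 normalised counts in the induced libraries and 2635, 2476 and 3736 at 3 h. The 2 groups did not overlap, as was so for 9.8% of all genes tested with the 3 h libraries higher and for 7.97% with them lower. For genes chosen by the test, here and below, a lack of overlap follows in part from the choice. Replicate 3 was the highest in both groups. The log2 fold change was 1.43 ± 0.15 (SE, n = 3 per group) with an adjusted p of 5.45e-06 in the 36-library fit. Ier3, an immediate early gene whose product acts on survival and MAP kinase signalling, had 600, 762 and 811 normalised counts in induced cells and 1525, 1627 and 2401 at 3 h. Again replicate 3 was highest in both groups and the groups were apart, with a log2 fold change of 1.36 ± 0.20 (SE) and an adjusted p of 0.00117.

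Sdc4 encodes syndecan 4, a heparan sulphate proteoglycan of the cell surface that helps to form focal adhesions and binds growth factors. It had 10055, 10593 and 10483 normalised counts in the induced libraries and 22248, 21225 and 21581 at 3 h. Its replicates lay closely together within each group, and the 3 h libraries were all about 2 times the induced ones (log2 fold change 1.06 ± 0.14, SE, adjusted p 0.000108, 36-library fit). Tnfaip2, a gene first known as a target of tumour necrosis factor, went from 368, 324 and 260 to 916, 983 and 947 (log2 1.58 ± 0.20, SE, adjusted p 6.08e-05). An antisense entry, Gm40578, shares 29.4% of its own exonic bases with Tnfaip2. Olr1, a scavenger receptor for oxidised lipoprotein, was at 80.2, 74.8 and 39.9 in induced cells and at 273, 309 and 189 at 3 h. Olr1 had the highest fold change of the 9 and the lowest counts of the 5 named here, with a log2 value of 1.97 ± 0.40 (SE) and an adjusted p of 0.0278.

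The course of these 5 genes in the other libraries of the line differed. Errfi1 was at 1147 ± 186 (SD, n = 3) in uninduced cells, at 2949 ± 686 at 3 h, at 1494 ± 374 at 6 h and at 1008 ± 97.9 at 24 h, so that its 3 h libraries stood above every other library of the line. Sdc4 went from 12416 ± 628 in uninduced cells to 21685 ± 519 at 3 h, 13238 ± 1172 at 6 h and 8603 ± 433 at 24 h. Tnfaip2 was still at 727 ± 65.6 at 6 h and at 514 ± 64.5 at 24 h, against 265 ± 34.5 in uninduced cells. Olr1 was lower in induced cells than in uninduced cells (155 ± 47.6), with a log2 difference of -1.24 (adjusted p 0.303 in the 36-library fit and 5.31e-05 in the 18-library fit). Ier3 (724 ± 110 against 996 ± 41.7) and Sdc4 (10377 ± 284 against 12416 ± 628) were also lower in induced than in uninduced cells in the 18-library fit (adjusted p 0.0268 and 0.00217) and did not pass in the 36-library fit (0.567 and 0.766). Of genes described below, Ptgs2, Dusp6 and Has2 were likewise lower in the 18-library fit (adjusted p 0.00887, 0.00149 and 0.00219), and Fosl1 was higher (5.29e-05). Ccl2, Ccl7 and Ccn2 did not pass in this contrast. None of these genes passed it in the 36-library fit.

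**Figure D1:**
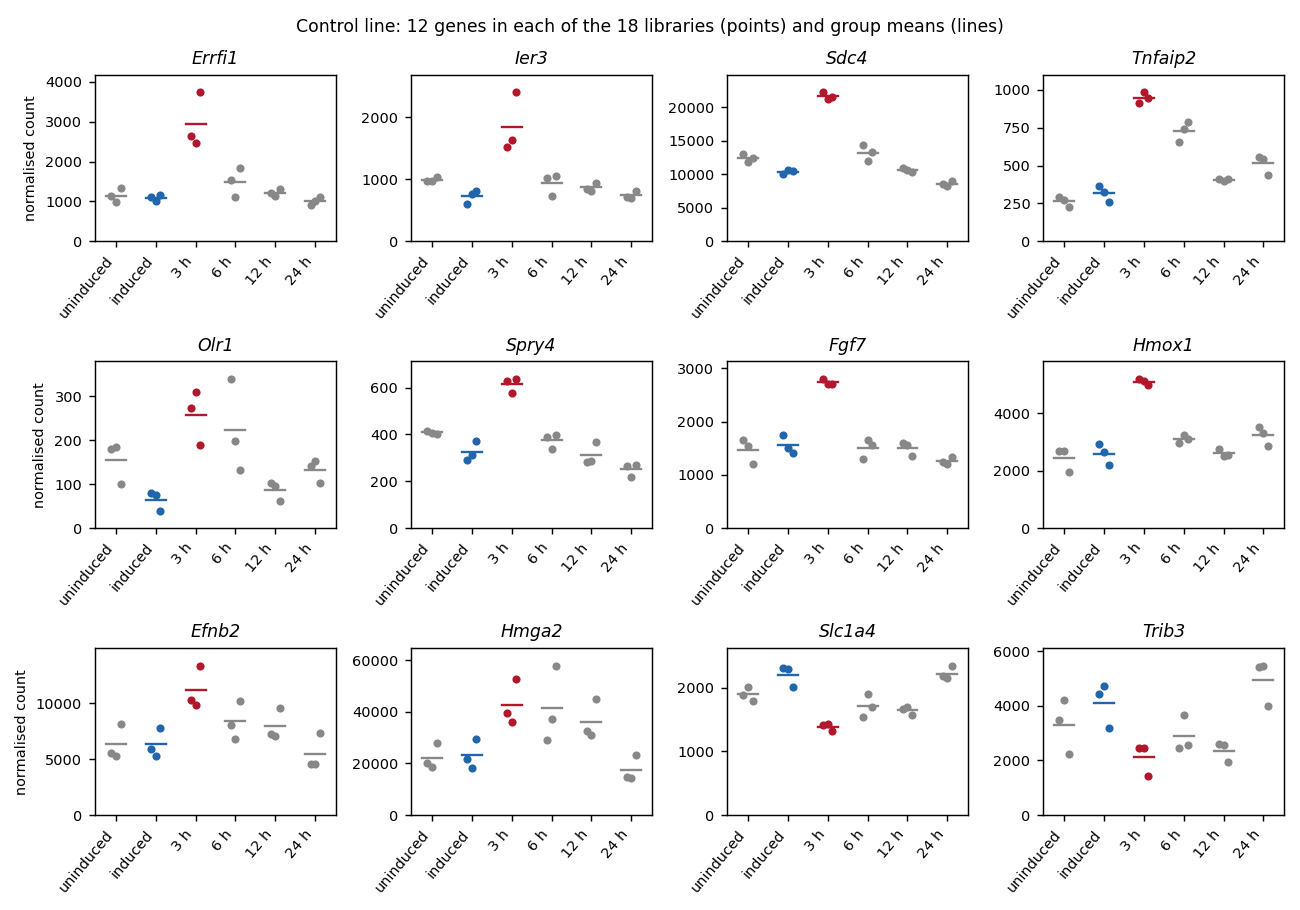
Normalised counts (vertical axes, linear, from 0) of 12 genes in each of the 18 Control line libraries by group, with points for libraries and lines for means of 3. In Errfi1, Sdc4, Tnfaip2 and Hmox1 the 3 libraries at 3 h (red) lie above all 15 others, while Slc1a4 has its 3 lowest libraries at 3 h. The induced libraries are in blue.

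Of these genes, those whose promoter held a match to a searched motif are shown, and they were chosen for that match. Whether any of these motifs has a part in the change at 3 h was not tested. Each line gives the 250 bases before the annotated start in RefSeq (GRCm38.p6), with matches in capitals.

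Errfi1 (chr4:150854820-150855069, + strand; CRE and TATA box): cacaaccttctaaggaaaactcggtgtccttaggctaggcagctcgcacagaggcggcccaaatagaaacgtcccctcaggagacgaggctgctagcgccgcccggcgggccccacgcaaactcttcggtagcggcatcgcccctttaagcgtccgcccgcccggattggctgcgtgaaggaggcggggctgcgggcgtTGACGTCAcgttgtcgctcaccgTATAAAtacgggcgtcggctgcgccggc
Ier3 (chr17:35821463-35821712, + strand; NF-kappaB): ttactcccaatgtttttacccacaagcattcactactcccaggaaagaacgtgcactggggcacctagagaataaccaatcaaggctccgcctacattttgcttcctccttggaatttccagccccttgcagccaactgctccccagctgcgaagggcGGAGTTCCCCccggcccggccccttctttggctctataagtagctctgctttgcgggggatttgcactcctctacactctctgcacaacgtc
Sdc4 (chr2:164443189-164443438, - strand; NF-kappaB): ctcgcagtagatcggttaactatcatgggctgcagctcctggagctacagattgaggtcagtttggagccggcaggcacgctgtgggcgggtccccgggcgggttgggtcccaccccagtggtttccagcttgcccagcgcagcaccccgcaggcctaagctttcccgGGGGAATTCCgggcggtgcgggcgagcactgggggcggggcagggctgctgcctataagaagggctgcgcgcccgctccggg
Olr1 (chr6:129507166-129507415, - strand; AP-1): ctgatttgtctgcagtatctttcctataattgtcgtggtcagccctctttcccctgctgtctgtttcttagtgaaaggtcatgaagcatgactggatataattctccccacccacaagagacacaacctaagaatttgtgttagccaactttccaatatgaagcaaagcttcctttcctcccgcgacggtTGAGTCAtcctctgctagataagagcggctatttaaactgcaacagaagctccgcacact

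The search covered both strands for AP-1 (TGANTCA), CRE (TGACGTCA), TEAD (GGAATG), C/EBP-ATF (TGATGNAA), the TATA box (TATAAA), the NF-kappaB motif and the CArG box. Of the 32851 promoters in the table, 6.75% held the AP-1 letters, 1.55% the CRE, 3.9% the NF-kappaB motif and 12.4% the TATA box in the same window. The CRE of Errfi1 lies 51 to 44 bases before its start and the NF-kappaB matches lie 92 to 83 bases before that of Ier3 and 82 to 73 bases before that of Sdc4. Errfi1 has a second annotated start, whose 250 bases hold a TEAD match. The windows of Tnfaip2 and, described below, of Slc1a4, Dusp6 and Sesn2 held none of the 7 motifs. Those of Efnb2 (TEAD and TATA box) and Trib3 (TATA box), also described below, held matches. Of the 42 symbols that rose in the 36-library fit, 33 had a promoter entry, and 4 of these (12.1%) held the AP-1 letters and 5 (15.2%) the NF-kappaB motif. Among all genes tested in the 18-library fit that had an entry the shares were 5.83% and 5.21%, and among the 1052 entries of genes that rose in that fit they were 7.22% and 6.08%. The other motifs were counted in the same 33 entries. The TATA box stood at 21.2%, TEAD at 15.2%, CRE at 6.06%, the CArG box at 3.03% and C/EBP-ATF at 0%. Among all genes tested with an entry they stood at 8.22%, 13.1%, 2.8%, 1.48% and 2.44%.

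The other 4 called genes are non-coding entries that overlap 2 longer genes, so reads cannot be assigned to them with certainty. Gm45074 (chromosome 8: 8637966-8639205) and Gm45073 (8: 8642766-8647012) lie within introns of Efnb2 on the same strand and share 0 exonic bases with it. Efnb2 encodes ephrin B2, a membrane ligand of Eph receptors. Gm45074 had 84.2, 119 and 146 normalised counts in induced cells and 265, 303 and 293 at 3 h, and Efnb2 itself had 5893, 5300 and 7761 against 10296, 9789 and 13296. Efnb2 rose in the 36-library fit (log2 0.82 ± 0.16, SE, adjusted p 0.0229), without overlap of the groups. The 2 intronic entries had log2 values of 1.33 and 1.19.

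Mir763 (10: 120447991-120448110) lies in an intron of Hmga2 on the same strand, and 1700006J14Rik (10: 120364157-120384336) runs antisense to Hmga2 and shares 4.85% of its exonic bases with it. Hmga2 encodes an architectural chromatin protein of embryonic and proliferating cells. Mir763 had 84.9, 156 and 238 normalised counts in induced cells and 365, 448 and 430 at 3 h, and 1700006J14Rik had 1103, 1386 and 1780 against 3105, 3355 and 3559. In both entries the 3 induced libraries were spread more widely than those at 3 h. Hmga2 had 21868, 18412 and 29575 counts in induced cells and 39413, 36221 and 52788 at 3 h, and its log2 fold change of 0.88 ± 0.29 (SE) did not pass in the 36-library fit (adjusted p 0.361) but did in the 18-library fit (SE 0.09, adjusted p 3.45e-06). Libraries of this kind are made from longer RNA, so the value on the Mir763 entry is no measure of the mature miRNA.

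Of the 9 called genes, 4 kept an adjusted p under 0.05 in the 36-library fit without each of the 6 libraries in turn: Errfi1, Ier3, Sdc4 and Tnfaip2. Olr1, 1700006J14Rik, Gm45073 and Gm45074 passed in 0 of those 6 fits and Mir763 in 2. In the 18-library fit, 30 of the 31 called genes passed in all 6.

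Among the genes that rose by less than 2-fold in the 36-library fit were 2 more members of growth factor signalling. Spry4, an inhibitor of the MAP kinase pathway, had 289, 312 and 370 normalised counts in induced cells and 630, 579 and 636 at 3 h (log2 0.93, adjusted p 0.0044). Fgf7, the keratinocyte growth factor that fibroblasts secrete, had 1751, 1503 and 1403 against 2796, 2707 and 2714 (log2 0.82, adjusted p 0.0186). Both were higher in every 3 h library than in every induced library, as was so for 9.8% of all genes.

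Hmox1 encodes heme oxygenase 1, which degrades heme and is a target of NRF2. It had 2916, 2636 and 2194 normalised counts in the induced libraries and 5182, 5124 and 4972 at 3 h, with a log2 fold change of 0.98 ± 0.17 (SE, adjusted p 0.00685). Ptger4, a receptor of prostaglandin E2, rose by a log2 of 0.87 ± 0.10 (SE, adjusted p 3.86e-05), from 753 ± 94.5 to 1373 ± 50.7 (SD, n = 3). Prkg2, a cGMP-dependent protein kinase, rose by 0.89, Spp1, the secreted phosphoprotein osteopontin, by 0.73, and Map2k3, the kinase that activates p38 MAP kinase, by 0.58. Rasa1, a GTPase-activating protein that turns Ras off, rose by 0.54. The Spp1 value is shared in part with Gm42793, an entry that lies within it.

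Genes with few counts also rose and were kept from the calls by the limit on the mean. Ccl20, a chemokine for CCR6-bearing lymphocytes, had 35.4, 19.4 and 27.7 normalised counts in induced cells and 92.7, 102 and 104 at 3 h (log2 1.89, adjusted p 0.0173). Mylk2, a myosin light chain kinase, had 45.6, 40.8 and 26.1 against 147, 171 and 124 (log2 1.93, adjusted p 0.000258). Gch1, the first enzyme of tetrahydrobiopterin synthesis, was at 25.2, 33.0 and 27.7 and then at 61.8, 74.3 and 81.8 (log2 1.32, adjusted p 0.0067). The groups did not overlap in any of these 3 genes, which follows in part from their choice by the test.

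The 9 genes that fell in the 36-library fit included Slc1a4, a neutral amino acid transporter for serine, alanine and threonine and a target of Atf4. Slc1a4 had 2305, 2293 and 2014 normalised counts in induced cells and 1408, 1437 and 1319 at 3 h, all below the lowest induced library, and fell by 0.67 on the log2 scale (SE 0.12, adjusted p 0.00685). Fbxl7, an F-box protein of a ubiquitin ligase, had 816, 865 and 805 against 447, 476 and 475 and fell by 0.83 (adjusted p 0.00685). Eppk1, a cytolinker of the plakin family, went from 84.9, 76.8 and 95.2 to 33.6, 50.4 and 33.1, and overlaps the entry BC024139 on the same strand. The calcium channel gene Cacna1a, the centriole-associated genes Cntrob and Ccdc18, Tbc1d31, Prob1 and the antisense entry Gm15860 made up the rest.

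The 18-library fit placed 33 pathway lists beside all genes. NF-kappaB targets had the highest median: 15 of 22 tested members rose and 0 fell, with a median log2 fold change of 0.61, against 6.77% and 4.98% of all genes and a median of -0.002. Protein-coding genes alone passed more often than all genes, 9.58% with higher and 7.22% with lower values. These shares are the closer ones for the lists here and below. In the 36-library fit 2 rose, Tnfaip2 and Ccl20. The chemokine Ccl2, which draws in monocytes, had 5370, 4876 and 4988 normalised counts in induced cells and 10726, 10972 and 11723 at 3 h. Its neighbour in sequence and place, Ccl7, had 529, 405 and 456 against 1170, 1023 and 1187. The neutrophil chemokine Cxcl1 went from 757, 926 and 719 to 1853, 1864 and 1452. All 3 chemokines had every 3 h library above every induced one, as was so for 9.8% of all genes. Their adjusted p-values were 0.000433, 8.71e-06 and 0.000408 in the 18-library fit and 0.0661, 0.0567 and 0.285 in the 36-library fit.

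The prostaglandin synthase gene Ptgs2 had 498, 378 and 572 normalised counts in induced cells and 930, 937 and 2100 at 3 h, where replicate 3 was over 2 times the others. It rose in the 18-library fit (log2 1.35, adjusted p 7.17e-05). The inhibitors of NF-kappaB were also higher: Tnfaip3, the deubiquitinase A20, rose by 0.97, Nfkbie by 0.65 and Nfkbia by 0.29 in the same fit. The cytokine gene Lif rose by 0.96 and the adhesion molecule Vcam1 by 0.63. Il6 did not pass, with 47.19, 35.96 and 35.33 counts before and 49.97, 47.76 and 61.07 after (adjusted p 0.3).

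MAP kinase feedback and ETS targets had a median of 0.46, with 10 of 19 members higher and 1 lower in the 18-library fit and 2 higher, Errfi1 and Spry4, in the 36-library fit. Dusp6, the phosphatase that switches off ERK, had 3012, 3012 and 4112 normalised counts in induced cells and 7557, 7484 and 9297 at 3 h (log2 1.27, adjusted p 7.54e-08 in the 18-library fit and 0.281 in the 36-library fit). Dusp4, another phosphatase for MAP kinases, had 6542, 7463 and 9435 against 13070, 13262 and 15008. Dusp5, Phlda1, Spry2 and the ETS factors Etv5 and Etv4 rose by 0.92, 0.81, 0.79, 0.68 and 0.46. Dusp14, at 962 and 734 in the 2 group means, was the member that fell.

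Of the immediate early genes themselves, 17 of 30 tested members were higher and 2 lower in the 18-library fit (median 0.29). In the 36-library fit 1 was higher, Ier3. Some of the genes that respond fast to serum did not pass in either fit: Fos had 162, 133 and 132 normalised counts in induced cells and 124, 82.3 and 143 at 3 h. Egr1 was at 5851, 4819 and 4426 before and at 5179, 5739 and 6376 after, and Jun and Dusp1 also had overlapping groups. Egr3, in contrast, went from 40.1, 55.4 and 56.8 to 118, 130 and 155. Egr2 had 43.3, 47.6 and 38.4 in induced cells and 107, 94.2 and 110 at 3 h. Both rose in the 18-library fit (adjusted p 8.29e-06 and 0.00244), as did the AP-1 subunit Fosl1 (log2 0.86) and Myc, which went from 9420, 8754 and 9188 to 11879, 12437 and 13896. In the same fit Nr4a1 and Klf2 rose, by 0.60 and 0.66, and the groups of Klf2 overlapped. Atf3 and Jund fell, by 0.39 and 0.53.

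Of the EGF family and other growth factors, 7 of 16 rose and 1 fell in the 18-library fit (median 0.26), and 1, Fgf7, rose in the 36-library fit. The EGF receptor ligand Hbegf had 938, 973 and 1243 normalised counts in induced cells and 1611, 1778 and 2437 at 3 h, and Fgf2 had 428, 389 and 505 against 660, 690 and 793. Bmp4 fell, by 0.41. Of the TGF-beta and BMP targets, 8 of 16 rose and 2 fell in the 18-library fit (median 0.35), and 0 of 17 passed in the 36-library fit. The inhibitory Smad7 rose by 0.45, and Smad6 fell by 0.34.

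The lists of adhesion, contractility and matrix stood closer to all genes. Of 18 YAP and TEAD targets 5 rose and 0 fell (median 0.13), led by Ccn2, a matricellular growth factor, with 2296, 2566 and 4582 normalised counts in induced cells and 5351, 5974 and 11381 at 3 h. Replicate 3 was the highest in both groups of Ccn2, and the antisense entry Gm15270 overlaps it. Of 21 SRF and MRTF targets 5 rose and 1 fell (median 0.11). Of 29 matrix genes 4 rose and 1 fell (median 0.03): Thbs1, an activator of latent TGF-beta, went from 30618, 31125 and 37839 to 61483, 59187 and 74714, and Has2, the hyaluronan synthase, from 605, 584 and 880 to 1105, 1172 and 1925. Both rose in the 18-library fit (adjusted p 0.000762 and 3.85e-05), and the lincRNA entry Gm29233 lies within Thbs1 on the opposite strand.

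Of 20 NRF2 and antioxidant genes 8 rose and 0 fell in the 18-library fit (median 0.13), with Hmox1 the only one of the list in the 36-library fit. Osgin1, an oxidative stress response gene, had 1682, 1529 and 1152 normalised counts in induced cells and 2966, 2774 and 1887 at 3 h. Txnrd1, Gclc and Srxn1, which serve thioredoxin, glutathione and peroxiredoxin, rose by 0.38, 0.33 and 0.32. Of the 5 genes of the zinc list 3 rose. The zinc exporter Slc30a1 had 1235, 1207 and 1272 counts in induced cells and 1991, 1957 and 1998 at 3 h, and Mt2 and Mt1, the metallothioneins, rose by 0.52 and 0.27.

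Small changes in 1 direction were seen in the genes of ribosome synthesis. Of 37 Myc targets and ribosome biogenesis factors 14 rose and 0 fell in the 18-library fit (median 0.12), with Rrp9 going from 1628, 1845 and 1957 to 2269, 2290 and 2319 normalised counts. Of 78 cytosolic ribosomal protein genes 16 rose and 0 fell (median 0.08), the highest being Rpl39 at 0.38. Ribosomal protein genes have many processed pseudogenes, with which they can share reads. Of 35 nuclear-encoded respiratory chain genes 5 rose and 0 fell (median 0.06). The 13 mitochondrially encoded mRNAs had a median of -0.25, and 3 fell: mt-Nd4 had 61396, 50728 and 43018 counts in induced cells and 42106, 40215 and 40509 at 3 h. The 3 induced libraries of mt-Nd4 were spread widely, and its adjusted p was 0.0217 in the 18-library fit and 0.709 in the 36-library fit. None of the lists of this paragraph had a member past the adjusted p in the 36-library fit.

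Of the 35 tested genes of the amino acid and integrated stress response, 11 fell and 0 rose in the 18-library fit, and the median was -0.09. Of all genes 4.98% fell and 6.77% rose, and of protein-coding genes 7.22% and 9.58%. In the 36-library fit 1 member, Slc1a4, fell. Trib3, a pseudokinase that Atf4 induces, had 4436, 4716 and 3180 normalised counts in induced cells and 2455, 2440 and 1446 at 3 h (log2 -0.98, adjusted p 0.000325 in the 18-library fit and 0.13 in the 36-library fit). Sesn2, a sensor of leucine that restrains mTORC1, had 2374, 2253 and 2138 against 1551, 1449 and 1157. Replicate 3 was the lowest in both groups of both genes. The groups did not overlap, as was so for 7.97% of all genes with the 3 h libraries lower.

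Atf4 itself had 16069, 15464 and 14993 normalised counts before and 12322, 13034 and 12428 after and fell by 0.31 on the log2 scale. Ppp1r15a, the subunit that directs a phosphatase to eIF2, fell by 0.64, the glutathione-degrading enzyme Chac1 by 0.57 and Nupr1 by 0.61 in the 18-library fit. Ddit3 and the asparagine synthetase gene Asns had overlapping groups and did not pass (adjusted p 0.238 and 0.673). Herpud1, of the endoplasmic reticulum list, fell by 0.62, in a list where 1 of 20 rose and 1 fell.

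Among the other lists with more members lower than higher were those of the circadian clock (2 higher, 8 lower of 19), of FoxO and growth factor withdrawal (2 and 7 of 21), of G2 and mitosis (1 and 9 of 35) and of interferon-stimulated genes (1 and 4 of 24), all in the 18-library fit, with medians of -0.15, -0.17, -0.10 and -0.10. The clock gene Per2 had 591, 552 and 538 normalised counts in induced cells and 423, 386 and 408 at 3 h. Ccng2, a cyclin that FoxO induces, went from 216, 313 and 226 to 166, 216 and 140, with groups that overlapped by 1 library. Cenpf, a kinetochore protein of G2 and mitosis, had 7662, 7699 and 6601 against 5968, 5858 and 5637, while Cdk1 rose by 0.14. Stat2 fell by 0.45 among the interferon-stimulated genes.

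The remaining lists had 0 to 4 members higher and 0 to 2 lower. In the 18-library fit 1 of 27 cholesterol genes rose and 0 fell (median 0.05), 0 of 11 fatty acid synthesis genes passed (median 0.01), 0 of 4 glucose-responsive arrestins passed (median -0.22) and 0 of 69 replication-dependent histones passed (median -0.08). Of 33 glycolysis and hypoxia genes 2 rose and 2 fell, of 35 G1 to S genes 2 rose and 0 fell, of 23 p53 targets 4 rose and 2 fell and of 22 heterochromatin writers and readers 1 rose and 2 fell. Of 13 glucocorticoid receptor targets 4 rose, among them Errfi1 and Sgk1, and 2 fell, Per1 and Tsc22d3. Heat shock chaperones had 0 higher and 2 lower of 19, lysosomal genes 3 and 0 of 23, Wnt and Notch targets 2 and 2 of 10, and D cyclins and CDK inhibitors 1 and 1 of 11. The housekeeping gene Hprt had 3871, 3765 and 3828 normalised counts in induced cells and 4266, 4219 and 4308 at 3 h, a log2 difference of 0.15 that passed in the 18-library fit (adjusted p 0.0141) and one of 0.16 that did not in the 36-library fit (adjusted p 0.88).

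**Figure D2:**
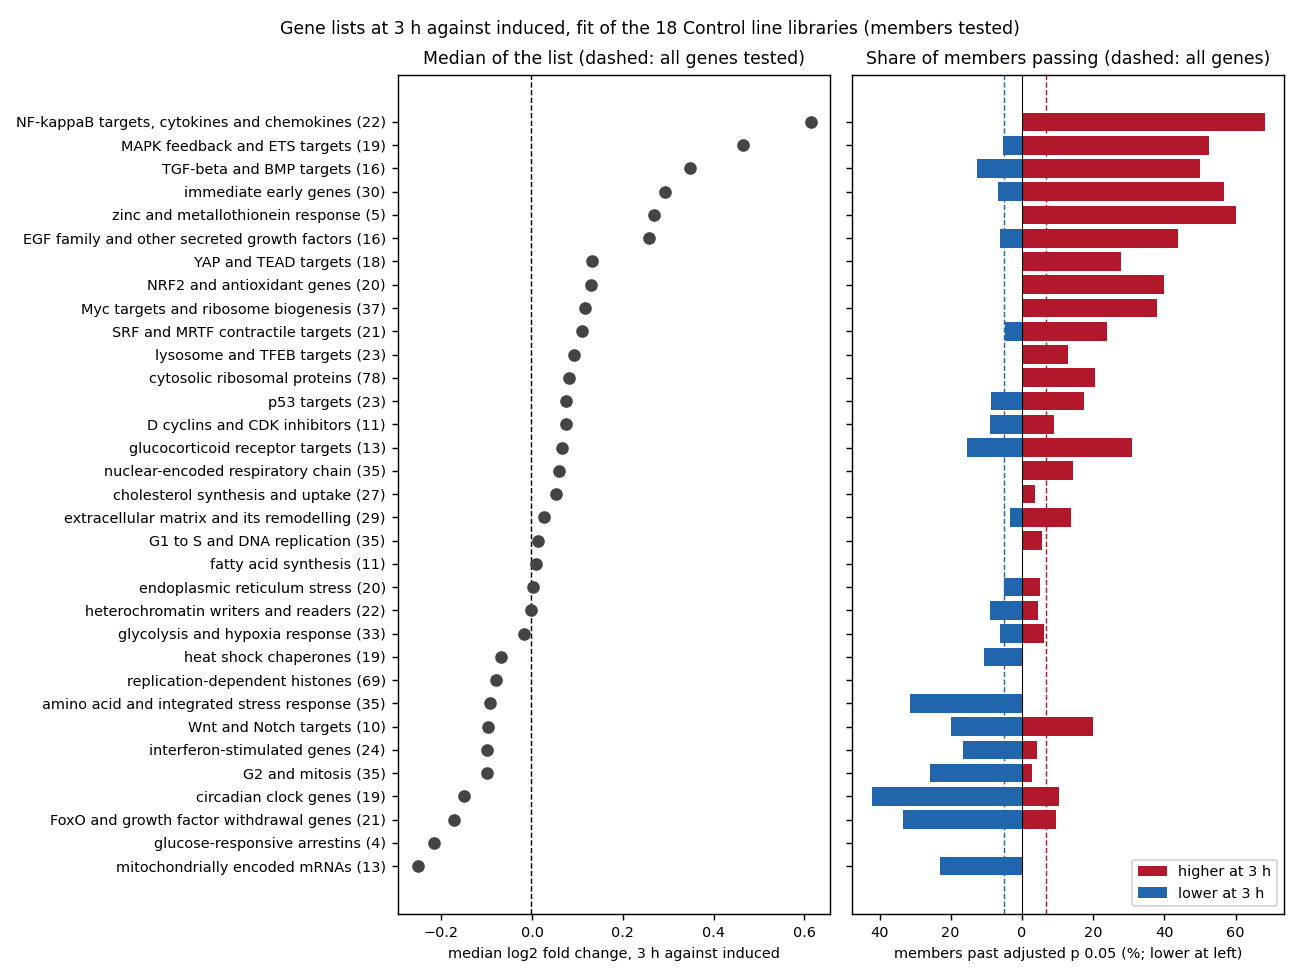
Median log2 fold change at 3 h against induced (left; points) and share of tested members past the adjusted p (right; bars in percent, higher to the right and lower to the left) for the 33 pathway lists in the 18-library fit, with the number tested in brackets and dashed lines for all genes. NF-kappaB targets lie furthest right with a median of 0.61 and mitochondrially encoded mRNAs furthest left with -0.25.

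Outside the lists, the 18-library fit called Trib2, a pseudokinase of the Tribbles family, which had 260, 244 and 227 normalised counts in induced cells and 746, 661 and 619 at 3 h (log2 1.48, adjusted p 1.05e-09, and 0.263 in the 36-library fit). The 2 genes it called lower were Gprin3 and Foxo6. Gprin3, an inducer of neurite outgrowth downstream of G proteins, had 289, 307 and 227 counts in induced cells and 150, 125 and 109 at 3 h, a log2 fold change of -1.10. Foxo6, a transcription factor of the FoxO family, had 286, 337 and 363 against 132, 161 and 209, a log2 fold change of -1.01. In neither gene did the groups overlap, as was so for 7.97% of all genes with the 3 h libraries lower. Neither gene passed in the 36-library fit (adjusted p 0.207 and 0.599).

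Repeat families, in which reads are summed over all copies of a repeat, changed in few cases. Of 1492 families tested, 1 was called, with an adjusted p under 0.05 and a log2 fold change beyond 0.5 (0.067%). It is MER63C, a family of ancient DNA transposons, with 967, 1532 and 1602 normalised counts in induced cells and 1930, 2327 and 2221 at 3 h (log2 0.67 ± 0.14, SE, adjusted p 0.0105). The lowest library of both groups was replicate 1, and the groups did not overlap. The call was lost without induced replicate 1, without 3 h replicate 2 or 3, without TMM and without the replicate block. In the 18-library fit 3 of 1455 families were called (0.206%): MER63C, tRNA-His-CAY_ (log2 0.65) and, lower at 3 h, the retroviral ERVB4_1-I_MM-int (log2 -0.51).

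GSAT_MM, the family that holds the major satellite to which dCas9 was directed, had 1353, 1328 and 1389 normalised counts in induced cells and 1128, 957 and 1013 at 3 h. The mean went from 1357 ± 30.3 to 1033 ± 87.6 (SD, n = 3), and every 3 h library lay below every induced one. The share of all repeat families so separated is not given. The exact two-sided permutation test gave p = 0.1, which is the smallest that 3 against 3 allows. The edgeR log2 fold change of -0.38 had an SE of 0.63 and an adjusted p of 0.998 in the 36-library fit. In the 18-library fit it was -0.40 with an SE of 0.10 and an adjusted p of 0.0165, where GSAT_MM fell. The minor satellite family SYNREP_MM was at 54.3, 82.6 and 81.4 and then at 94.5, 95.5 and 76.6, with overlapping groups.

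The young retrotransposons L1Md_A and IAPEz-int had log2 fold changes of -0.19 and -0.11 and did not pass in either fit. Of the 662 families of long terminal repeat elements 458 had negative and 204 positive values, with a median of -0.06 against -0.03 over all families. Negative values also prevailed over all 1492 families (872 negative, 620 positive) and in the 158 LINE families (104 and 54). Of the long terminal repeat families 1 fell in the 18-library fit and 0 passed in the 36-library fit. Repeats took 20.6 ± 1.96% of all counts in induced cells and 19.9 ± 1.25% at 3 h (SD, n = 3, exact two-sided permutation p = 0.7).

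**Figure D3:**
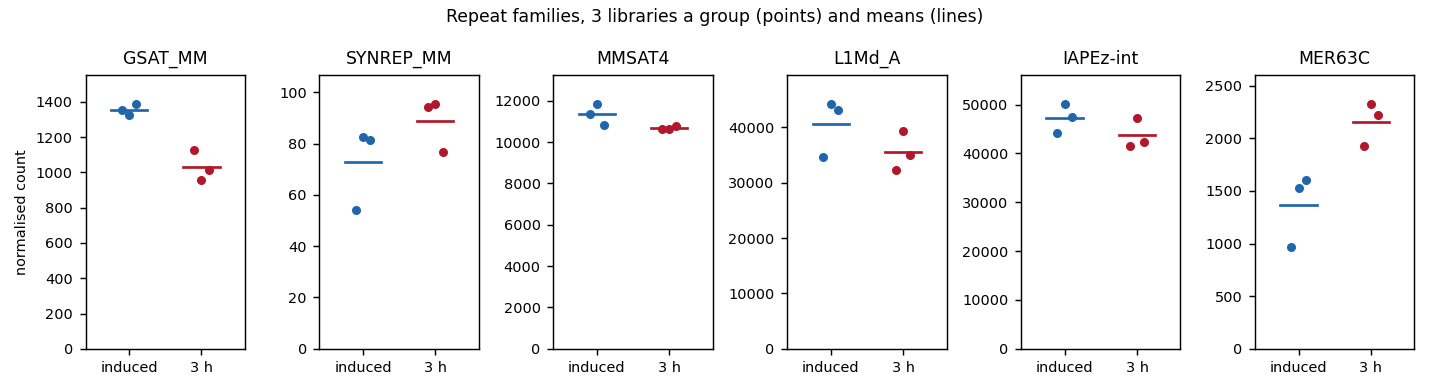
Normalised counts (linear axes from 0) of 6 repeat families in the 3 induced libraries (blue) and the 3 libraries at 3 h (red), with lines for the means. GSAT_MM shows 3 lower points at 3 h and MER63C 3 higher ones, while the groups of L1Md_A, IAPEz-int and SYNREP_MM overlap. Those of MMSAT4 do not (10829 to 11842 against 10606 to 10754).

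The later course of the genes that passed at 3 h was examined in groups outside the 3 h contrast, with uninduced cells as reference. In each fit all groups share 1 estimate of spread. The later and uninduced libraries therefore also helped to decide which genes passed at 3 h, and the shares below are not independent of that choice. Uninduced cells were collected before induction, whereas the 3 h change was taken against induced cells. Time in culture and the induction itself therefore enter these contrasts as well, and their parts cannot be told apart. At 6 h 8 of the 9 called genes had positive log2 values against uninduced cells and 1, Tnfaip2, passed the adjusted p (log2 1.46 ± 0.20, SE, adjusted p 0.000219). Over all genes 0.105% passed with higher values at 6 h in the 36-library fit. At 12 h 6 of the 9 were positive and 0 passed (0.161% of all genes higher). At 24 h 3 were positive and again Tnfaip2 alone passed (log2 0.95, adjusted p 0.0173; 0.242% of all genes higher). The median of the 9 was 0.53 at 6 h, 0.47 at 12 h and -0.20 at 24 h. In the 18-library fit 6 of the 9 passed with higher and 0 with lower values at 6 h (5.09% and 7.73% of all genes), 4 and 2 at 12 h (6.45% and 10.3%) and 1 and 2 at 24 h (7.13% and 12.7%).

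The wider set of the 18-library fit was split evenly at 6 h, when 775 of the 1493 genes that rose at 3 h had positive and 718 negative values against uninduced cells (median 0.009, against 0.015 over all genes). Of the 1493 genes that rose at 3 h, 728 (48.8%) passed the adjusted p with lower values at 24 h than in uninduced cells, against 12.7% of all genes tested, and 42 were higher. Of the 1098 that fell at 3 h, 269 (24.5%) were higher at 24 h than in uninduced cells, against 7.13% of all genes, and 95 were lower. At 6 h 214 of the genes that rose at 3 h were higher and 157 lower than in uninduced cells (14.3% and 10.5%, against 5.09% and 7.73% of all genes). Among the examples, Spry4 was at 409 ± 6.76 in uninduced cells, 615 ± 31.4 at 3 h and 251 ± 28.7 at 24 h (SD, n = 3). Its fall at 24 h against uninduced cells passed in the 36-library fit (log2 -0.70, adjusted p 0.0239) and in the 18-library fit (7.63e-06). Trib3 had the opposite course, with 3306 ± 998 in uninduced cells, 2114 ± 578 at 3 h and 4957 ± 838 at 24 h. Its higher value at 24 h passed in the 18-library fit only (adjusted p 0.00485, and 0.288 in the 36-library fit).

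The Activator line went through the same removal of doxycycline and change of medium after 6 h of induction, and 5.25% of genes passed with higher and 4.77% with lower values at 3 h in that line. None of the 9 genes called in the Control line passed there, and 4 of them had positive values. Line and length of induction cannot be told apart in this comparison. The difference between the 3 h changes of the lines, tested as an interaction in the 36-library fit, passed the adjusted p for 149 genes (0.522%) and was called for 45 (0.158%), of which 26 had the higher change in the Control line. The 45 became 9 without the replicate block and 8 to 79 without 1 library, and stayed within 1.5 times only without Control induced replicate 3 (31), Control 3 h replicate 2 (51) or Activator 3 h replicate 2 (34). The 9 genes were chosen for their change in the same Control line libraries that enter this difference, so its direction for them is in part set by that choice. It passed for 6 of the 9: Olr1 (log2 difference 2.51 ± 0.59, SE, adjusted p 0.0443), Tnfaip2 (1.86), 1700006J14Rik (1.83), Errfi1 (1.52), Ier3 (1.37) and Sdc4 (1.03).

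Errfi1 had a mean of 500 normalised counts in induced and 472 in 3 h cells of the Activator line, against 1086 and 2949 in the Control line. Sdc4 was at 14225 and 14478 in the Activator line, above its induced level in the Control line, and Hmga2 went from 8899 to 4351, a fall of 1.04 on the log2 scale that passed there (adjusted p 0.0262). Spry4 rose in both lines (log2 0.93 in the Control line and 0.49 in the Activator line, adjusted p 0.0044 and 0.0389), and the difference did not pass (0.44 ± 0.22, SE, adjusted p 0.387). Hydin, Rbm20 and Rph3al, which rose in the Activator line, had negative differences. In the Control line Hydin was at 6.09 and 2.02, Rbm20 at 14.9 and 6.10 and Rph3al at 63.1 and 38.7 normalised counts (means of induced and 3 h cells).

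**Figure D4:**
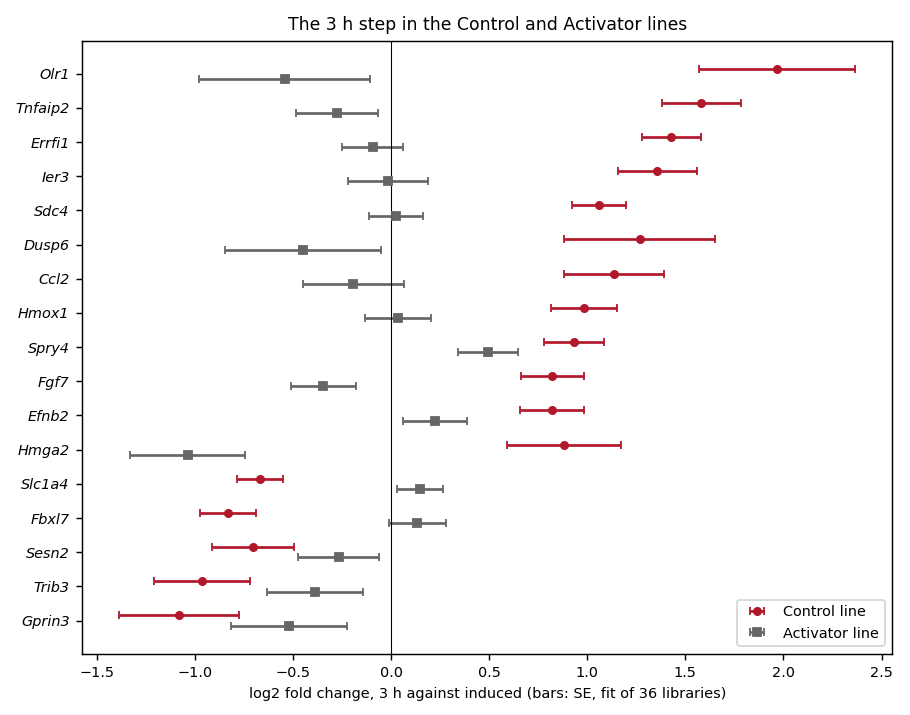
Log2 fold change at 3 h against induced (horizontal axis, bars are SE, 36-library fit) for 17 genes in the Control line (red circles) and the Activator line (grey squares), 3 libraries a group. The 5 coding genes called in the Control line lie between 1.06 and 1.97 there and between -0.54 and 0.03 in the Activator line.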

How the data were processed

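Total RNA of the 36 samples had been depleted of ribosomal RNA and made into stranded libraries. Per the labels and methods, the authors trimmed reads with cutadapt 1.8.1, aligned them to GRCm38 with STAR 2.5.2b and ran TEtranscripts 2.0.3 to count reads on genes and on repeats. The deposited values are raw counts per gene and per repeat family, with no normalisation. The strand setting of the counting is not given in the sources used here. Rows without a gene name held at most 0.004522% of the counts and were left out.

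Genes were filtered with filterByExpr, scaled with TMM factors and tested with the quasi-likelihood test of edgeR 4.0.16 (R 4.3.3) over 12 groups with the replicate number as a block, and repeats likewise with library sizes from genes. Normalised counts are scaled to the mean effective library size. The replicate numbers were taken to pair the samples, which the labels do not state. Deviations of same-numbered induced and 3 h libraries correlated at r = 0.724, 0.484 and 0.782, and all other pairs were negative. Because deviations cancel out within a group, the negative values follow in part from the positive ones. All replicate pairs differed beyond counting noise. The code was tested on simulated data. DESeq2 1.42.0, other scalings, filters and libraries were tried as alternatives. The members, gene lists and tests were chosen with earlier results of these data known. Named were up to 12 called genes in each direction, up to 4 passing members of each list in each direction and Hprt. The same rule was applied to the 18-library fit and, beyond it, single genes were named after their values were seen (Trib2, the overlapping host genes, Fos, Egr1, Jun, Il6, Ddit3, Asns and genes past the adjusted p that were not called). The values of 1 listed gene are not reported here.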

Additional observations from a re-analysis of the deposited data

Results flagged for a closer look

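The change from induced to 3 h differed between the Control and the Activator line, by the interaction test of the 36-library fit with an adjusted p under 0.05, 2-fold and a mean above 100, for 45 genes. The values below are the log2 change of the Control line less that of the Activator line, for named genes past the adjusted p. Most of them were named for their 3 h change in the same Control line libraries that enter this difference. Its direction for them is in part set by that choice. Among genes with the higher change in the Control line they were 2.51 for Olr1, 1.92 for Hmga2, 1.88 for Arsj, 1.86 for Tnfaip2, 1.83 for 1700006J14Rik, 1.79 for Gm6634, 1.64 for the kinase gene Prkg2 and 1.53 for Mylk2. Errfi1 had 1.52, Gm40578, an antisense entry that overlaps Tnfaip2, had 1.48, and Ier3 and Fgf2 had 1.37 each. Fgf7 had 1.17, Cfap43 1.16, Sdc4 1.03, Map2k3 0.85, Gclc 0.77, Rasa1 0.69, Cmtm6 0.68 and the phosphatase gene Ppm1f 0.45. Among genes with the lower change in the Control line they were -0.81 for Slc1a4, -0.96 for Fbxl7, -1.58 for Eppk1, -2.46 for Rph3al, -2.62 for Rbm20, -3.28 for Gm15860 and -4.58 for Hydin. The Gm15860 and Hydin values rest on means of 7.40 or less in the Control line. Rbm20 and Rph3al also had Control line means under 100. The lines also differed in the length of induction (24 h and 6 h), and the 2 cannot be told apart. Groups of 3 libraries were not examined for outlying samples.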

How the results depend on the processing

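The call of 9 genes at 3 h became 23 with DESeq2, 5 on library sizes without TMM, 31 with the Control line libraries only, 29 with the 6 libraries only, 17 with no limit on the mean, 23 with a 1.5-fold limit and 44 with no limit on the fold change, and 5 to 6 without 1 library. The 52 genes past the adjusted p became 186 with DESeq2, 18 without TMM, 2591 with the Control line libraries, 2743 with the 6 libraries, 27 with no filter and 11 to 18 without 1 library. In the 18-library fit the 2591 became 1439 to 1994 and the 31 calls 28 to 36 without 1 library. Without the replicate block the 9, 52 and 2591 became 5, 15 and 710. The 1 repeat call became 0 without TMM, without the replicate block or with a log2 limit of 1, 3 with the Control line libraries, 4 with the 6 libraries and 0 or 1 without 1 library (0 without induced replicate 1 or 3 h replicates 2 or 3). The 45 genes that differ between the lines became 95 with DESeq2, 14 without TMM, 9 without the replicate block, 121 with no fold limit and 8 to 79 without 1 library (79 without Activator induced replicate 3).

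Against uninduced cells, the 24 calls at 6 h became 39 with DESeq2, 43 with the Control line libraries, 43 with no filter, 44 with no limit on the mean, 53 at 1.5-fold, 93 with no fold limit and 15 to 28 without 1 library. The 66 at 12 h became 40 without the replicate block, 125 with no filter, 137 with no limit on the mean, 141 at 1.5-fold, 227 with no fold limit and 30 to 70 without 1 library. The 33 at 24 h became 55 with no filter, 60 with no limit on the mean, 95 at 1.5-fold, 193 with no fold limit and 17 to 28 without 1 library. The log2 ratio of mean GSAT_MM counts stayed between -0.46 and -0.34 (main value -0.39), and the difference of -0.755 percentage points in the repeat share ran from -1.82 to 0.11 without 1 library, positive without induced replicate 2. Without 1 library, small log2 fold changes turned in sign for Tubb3 (-0.17 to 0.018), Cdkn2b (-0.00391 to 0.47), Cfd (-0.94 to 0.077) and Pecam1 (-1.07 to 0.12). The causes were not tested. From the same counts, the SEs of the 9 called genes were 0.14 to 0.40 on the log2 scale in the 36-library fit and 0.05 to 0.17 in the 18-library fit.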

Other observations

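Further genes outside the lists were called in the 18-library fit, named here after their values were seen. Sipa1l2, a regulator of the GTPase Rap, had 766, 816 and 681 normalised counts in induced cells and 1741, 1672 and 1254 at 3 h (log2 1.04, SE 0.08, adjusted p 7.11e-09). Foxs1, a forkhead transcription factor, went from 829, 749 and 716 to 1619, 1559 and 1520, and Kctd11 from 747, 659 and 671 to 1299, 1274 and 1667. Tnfsf18, the ligand of the receptor GITR on lymphocytes, had 142, 150 and 99.9 against 276, 273 and 248. Rerg, a small GTPase of the Ras family, had 78.7, 83.6 and 39.9 against 201, 165 and 118. The groups did not overlap in any of these 5 genes, as was so for 9.8% of all genes with the 3 h libraries higher. For genes chosen by their calls this follows in part from the choice. None of the 5 passed in the 36-library fit (adjusted p 0.118 to 0.653).

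F2r, the thrombin receptor PAR1, rose in both fits, from 9233, 8064 and 10216 to 12750, 11358 and 14676 (log2 0.49, adjusted p 0.0221 in the 36-library fit). Cfap43, a cilium and flagellum gene, also rose in both and nearly doubled in each pair, from 1490, 1453 and 1633 to 2861, 2752 and 3207 (log2 0.95, adjusted p 0.00539). Ptp4a1, a phosphatase of the PRL family, is counted under 2 overlapping entries that both rose by 0.49. Among the 597 miRNA entries tested in the 18-library fit 21 rose (3.52%, against 6.77% of all genes) and 1 fell (0.168%, against 4.98%), which for entries within host genes counts the host as well.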
